A study of Mus musculus with 9 samples.

Results

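The genes described here encode 10 adipokines and adipocyte factors, followed across 9 RNAseq libraries of primary mouse stromal vascular fraction (SVF) cells. They were taken from a list of named genes and not by a rule on their values. The list was chosen with earlier results of these data known. All 10 were found by symbol among the 32285 gene identifiers of the count tables. SVF cells are the cells of fat other than mature adipocytes, among them preadipocytes and macrophages, and these came from the subcutaneous white fat of wild-type neonatal mice 4 to 6 days old. The undifferentiated group (3 libraries) was not given the differentiation media. The vehicle group (3 libraries) was differentiated for 6 days with DMSO, the drug's solvent, and the MIZ group (3 libraries) was differentiated for 6 days with 25 µM mizoribine (MIZ), which blocks IMPDH1 and IMPDH2 and with them the synthesis of guanine nucleotides. Both differentiated groups received insulin, dexamethasone and IBMX for 2 days and then insulin, T3 and the PPARγ agonists troglitazone and rosiglitazone, so PPARγ was under drug stimulation in both. The strain was not given in the sources used here. The methods call the libraries of a group biological replicates, and p-values measure the spread between these libraries.

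Adipokines are proteins that fat cells release to act on other tissues or on their neighbours. Adiponectin and resistin circulate as disulfide-linked multimers made almost wholly by fat cells in mice, and leptin signals the size of the fat store to the brain. Other fat cell products are better known from elsewhere: angiotensinogen is the precursor of the angiotensins, apelin and chemerin are ligands of G protein-coupled receptors, neuregulin 4 is an EGF-like growth factor, NAMPT is an enzyme of NAD synthesis that is also found outside cells, and galectin-12 is a lectin that sits mainly on lipid droplets. PPARγ and C/EBPα are the transcription factors that switch on most genes of this kind as preadipocytes become adipocytes.

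Libraries held 28760721 to 55288455 counts, and the 17173 genes that reached 5 counts in 3 or more libraries were tested with edgeR's quasi-likelihood test, with p-values adjusted by the Benjamini-Hochberg method and called under 0.05. Levels are CPM, counts scaled to a common library size after TMM normalization. GEO's labels call all 9 samples adipocytes. The summed level of the adipocyte markers Pparg, Plin1, Fabp4, Cidec and Lipe was 21.4 to 23.6 CPM in undifferentiated libraries, where Cidec was at 0, so these cells did not carry the label's markers at adipocyte level. It was 13198.5 to 13961.7 CPM with vehicle and 888 to 1105 CPM with MIZ. In bulk RNA, fewer cells of a type and less RNA per cell cannot be told apart. The sums of markers listed for other cells moved too. Preadipocyte markers stood at 1105 to 1199 CPM in undifferentiated, 334 to 403 CPM in vehicle and 992 to 1162 CPM in MIZ libraries. In the same order, macrophage markers stood at 2355 to 2616, 302 to 487 and 452 to 625 CPM. Smooth muscle markers stood at 711 to 848, 87.2 to 120.7 and 6521 to 8574 CPM. Endothelial markers stood at 27.2 to 29.6, 5.36 to 7.13 and 2.51 to 4.03 CPM, and mesothelial markers, nearly all of them Krt19 counts, at 3.07 to 3.17, 12.0 to 16.0 and 10.1 to 11.1 CPM. Adgre1 was the largest part of the macrophage sum with vehicle and with MIZ (means of 191 and 399 CPM). Ptprc, Csf1r, Cd68 and Mrc1 had lower means with MIZ than with vehicle. With MIZ, Pdgfra and Pdgfrb made up most of the preadipocyte sum (means of 387 and 522 CPM). Acta2 and Tagln made up most of the smooth muscle sum (3622 and 3242 CPM), while Des stood at 8.93 CPM with vehicle and 8.46 CPM with MIZ. Between MIZ and vehicle, 5 of 5 adipocyte markers were lower, 3 of 5 preadipocyte markers were higher and 1 lower, 1 of 5 macrophage markers was higher and 1 lower, and 4 of 5 smooth muscle markers were higher. Against undifferentiated cells, 3 of 5 preadipocyte markers were lower with MIZ and 1 (Pdgfrb) was higher, though the ranges of the sum overlapped. Cd34 stood at 9.08 CPM in undifferentiated and 0.681 CPM in MIZ cells. The part of these markers in the results that follow was not tested.

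Of the 10 genes, 9 had enough counts to be tested and Lep did not. All 9 stood lower in MIZ-treated than in vehicle-treated cells, and 0 stood higher, where 35.0% of all genes tested were called lower and 35.8% higher. All 9 were higher with vehicle than in undifferentiated cells, where 36.1% of all genes were. Both comparisons use the same vehicle libraries, so the counts are not independent of each other. In CPM, no library of one group overlapped the other group for any of the 9 in both comparisons. The share of all genes tested without such overlap was not computed, so this is a description. On the TPM scale Rarres2 overlapped between MIZ and vehicle. The median log2 fold change of the 9 was -2.35 between MIZ and vehicle (0.02 for all genes tested) and 6.78 between vehicle and undifferentiated cells (-0.08 for all genes tested). Against undifferentiated cells, 8 of the 9 were still higher with MIZ (33.7% of all genes) and 0 were lower (33.2% of all genes). The genes thus all rose with differentiation and all stood lower with MIZ, but by very different amounts, from a fall to 65.5% of the vehicle level (Rarres2) to a fall to 1.503% (Nrg4).

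**Figure D1:**
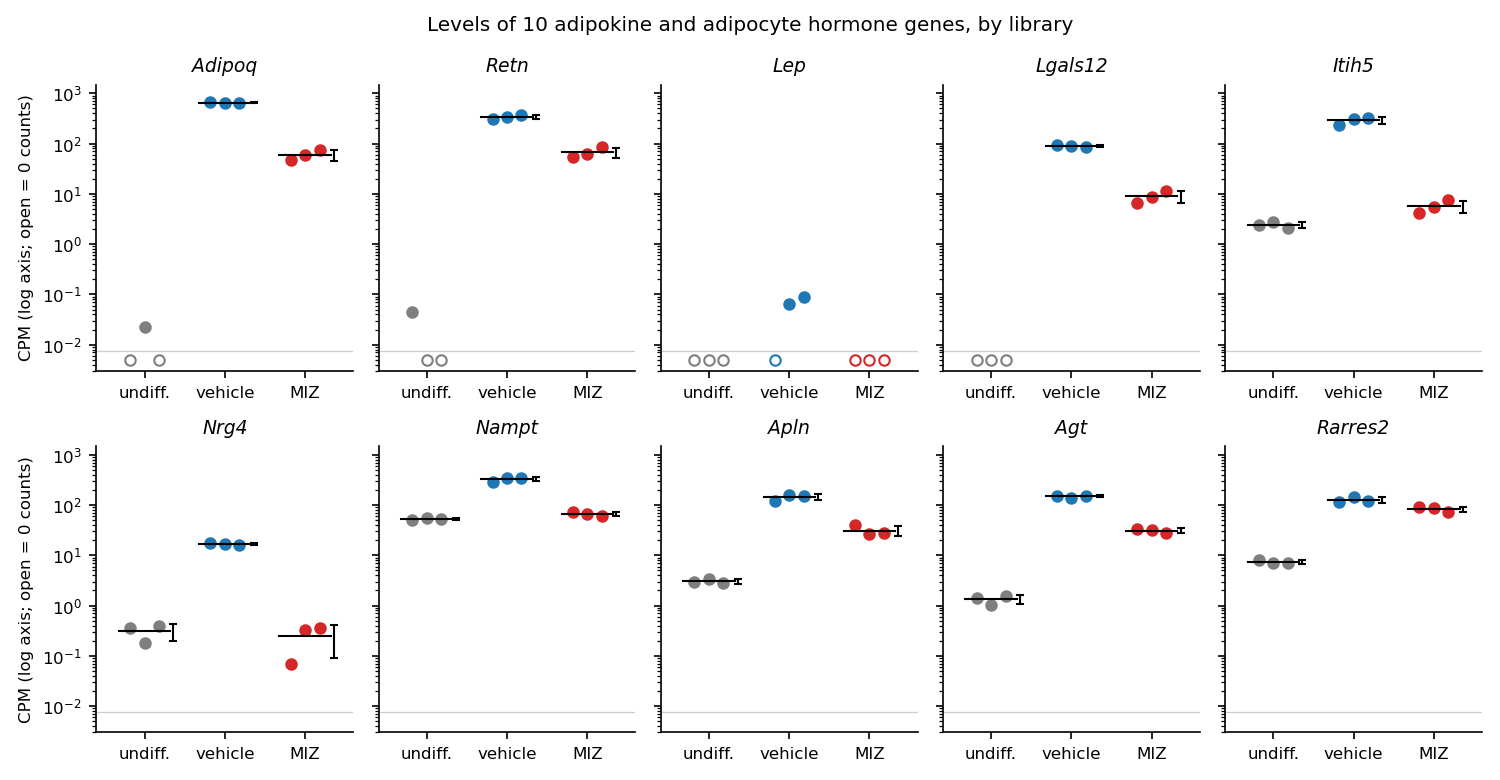
Each panel plots 1 gene in CPM on a log axis, with a point per library, open points under the grey line for libraries with 0 counts, and the mean (line) ± SD (bar) of groups without zeros (n = 3). For the 9 genes other than Lep, the MIZ libraries sit below every vehicle library, and for Nrg4 they overlap the undifferentiated libraries.

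The stretches of DNA before the start sites of 8 of the 10 genes (not Rarres2 and Lgals12) were read from RefSeq's table for GRCm38.p6. The 250 bases before the start of 4 genes are shown, read 5′ to 3′ along the gene's own strand. These genes differed in behaviour: Adipoq and Itih5 were high with vehicle and fell with MIZ to different depths, Agt kept part of its rise, and Lep was near 0 in every group. The genes with the smallest and the largest fall, Rarres2 and Nrg4, are not among them. Capitals mark matches on either strand to the core that C/EBP factors bind, TTGCNNAA. They also mark the CCAAT box, spelled by its name, and the box with the letters TATAAA near which transcription often starts. The last motif searched and marked is the GC box of Sp1-type factors, GGGCGG. The windows are chr16:23146286-23146535 (plus strand) for Adipoq, chr2:10153293-10153542 (plus strand) for Itih5, chr8:124569707-124569956 (minus strand) for Agt and chr6:29059971-29060220 (plus strand) for Lep.
Adipoq: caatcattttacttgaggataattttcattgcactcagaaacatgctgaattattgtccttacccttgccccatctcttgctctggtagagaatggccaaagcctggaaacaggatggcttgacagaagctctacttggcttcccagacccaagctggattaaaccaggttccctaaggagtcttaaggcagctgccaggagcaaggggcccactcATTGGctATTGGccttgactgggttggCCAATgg
Itih5: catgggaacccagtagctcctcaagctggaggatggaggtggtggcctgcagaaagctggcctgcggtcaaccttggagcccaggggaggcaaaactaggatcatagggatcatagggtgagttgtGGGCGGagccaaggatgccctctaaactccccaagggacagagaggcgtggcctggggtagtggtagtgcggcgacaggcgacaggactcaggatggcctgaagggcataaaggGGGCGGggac
Agt: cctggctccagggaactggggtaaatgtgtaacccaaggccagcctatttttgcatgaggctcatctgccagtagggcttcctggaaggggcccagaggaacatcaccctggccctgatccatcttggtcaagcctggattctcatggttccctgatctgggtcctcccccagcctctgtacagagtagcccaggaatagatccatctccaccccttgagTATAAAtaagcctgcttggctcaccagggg
Lep: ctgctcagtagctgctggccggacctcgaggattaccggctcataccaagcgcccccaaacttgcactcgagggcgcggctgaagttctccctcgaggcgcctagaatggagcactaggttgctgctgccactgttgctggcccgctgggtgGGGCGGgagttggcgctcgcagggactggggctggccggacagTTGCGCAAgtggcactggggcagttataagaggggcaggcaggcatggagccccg

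The Adipoq window holds 3 CCAAT matches, all in the last 34 bases before the start, while 33.8% of all 32851 promoter windows of this length hold at least 1 and none of the other 7 windows of these genes does. The Agt window holds a TATA box 30 to 25 bases before the start, found in 12.4% of all windows. The Lep window holds a C/EBP core 55 to 48 bases before the start, with the letters TTGCGCAA, a palindrome. Any match to the core TTGCNNAA was found in 1 of the 8 windows and in 9.56% of all. The GC box was in 4 of the 8 windows (Apln, Itih5, Lep and Nampt) and in 32.7% of all. A direct repeat of 2 AGGTCA half-sites with 1 base between them, the form that PPARγ and RXR bind together, was in 0 of the 8 windows and in 0.0335% of all, and the half-site alone was in 2 (Nampt and Nrg4) and in 14.0% of all. RefSeq's start lies 43219 bases inside the annotated gene for Nrg4 and 790 bases inside it for Nampt, so those windows stand for 1 start among several. These matches describe letters in the windows, and binding was not measured.

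Of the classical hormones of the fat cell, adiponectin and resistin transcripts were abundant with vehicle and leptin transcripts were not. Adipoq (ENSMUSG00000022878, chr16:23146536-23158028, plus strand), which encodes adiponectin, stood at 677, 636 and 640 CPM in the vehicle libraries and at 46.2, 58.5 and 75.02 CPM in the MIZ libraries. The undifferentiated libraries held 1 Adipoq count in all. Every MIZ library was far below every vehicle library and far above every undifferentiated one. The mean was 651 ± 22.9 CPM (SD, n = 3) with vehicle and 59.9 ± 14.5 CPM (SD, n = 3) with MIZ, a log2 fold change of -3.44 (edgeR, standard error or SE 0.161, adjusted p = 9.61e-08), so that 9.20% of the vehicle level was found with MIZ. The ratio to undifferentiated cells, which rests on that 1 count, was 95140 with vehicle (95% counting interval 17070 to 3758000) and 8628 with MIZ (1548 to 340800).

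Retn (ENSMUSG00000012705, chr8:3655770-3660110, plus strand) encodes resistin, a small cysteine-rich hormone. Its vehicle libraries stood at 309, 345 and 374 CPM and its MIZ libraries at 54.4, 63.4 and 84.5 CPM, with 2 counts in all undifferentiated libraries together. The groups did not overlap. The mean fell from 342 ± 32.3 to 67.5 ± 15.5 CPM (SD, n = 3 each), a log2 fold change of -2.35 (edgeR, SE 0.164, adjusted p = 2.22e-06), which left 19.7% of the vehicle level, a larger share than for Adipoq. Against undifferentiated cells the ratio was 25570 with vehicle (95% counting interval 7078 to 211200) and 4869 with MIZ (1347 to 40210). Of the resistin-like genes, only Retnla had enough counts to be tested, at a mean of 0.273 CPM with vehicle and 0.0242 CPM with MIZ (log2 fold change -3.27, SE 0.758, and -4.03 without MIZ replicate 1), and Retnlb and Retnlg had 0 counts in all 9 libraries.

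Lep (ENSMUSG00000059201, chr6:29060220-29073877, plus strand), which encodes leptin, was close to absent. The vehicle libraries held 0, 3 and 4 Lep counts, or 0.0592 CPM over the group, and the 6 other libraries held 0. A count of 0 allows up to 0.0204 CPM in the undifferentiated and 0.0261 CPM in the MIZ group (3 counts over the group, for counting error only). The ratio of the vehicle group to a group with 0 counts has a lower 95% counting limit of 1.79 against undifferentiated cells and 1.40 against MIZ. Lep had too few counts for the test used here. Without the filter on low counts, edgeR gave an adjusted p of 0.0369 for vehicle against undifferentiated cells and 0.0585 for MIZ against vehicle, on the same 7 counts, with 1 of the 3 vehicle libraries at 0. On the TPM scale, which corrects for transcript length, Lep stood at 0.0474 in vehicle libraries where Adipoq stood at 1453.

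Of the precursors and ligands with receptors of their own, Agt (ENSMUSG00000031980, chr8:124556534-124569706, minus strand), which encodes angiotensinogen, stood at 1.43, 1.03 and 1.57 CPM in undifferentiated, 153, 141 and 155 CPM in vehicle and 33.7, 32.5 and 27.4 CPM in MIZ libraries. The 3 groups did not overlap. With MIZ the level was 20.9% of that with vehicle (31.2 ± 3.37 against 149.5 ± 7.36 CPM, SD, n = 3 each), a log2 fold change of -2.26 (edgeR, SE 0.0931, adjusted p = 2.51e-09). It was still higher than in undifferentiated cells by 4.52 on the log2 scale (edgeR, SE 0.127, adjusted p = 5.04e-10), where vehicle was higher by 6.78 (SE 0.127).

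Apln (ENSMUSG00000037010, chrX:48025146-48034853, minus strand) encodes apelin, a peptide that acts on vessels and the heart. Its level was 2.98, 3.42 and 2.76 CPM in undifferentiated, 121, 160 and 154 CPM in vehicle and 39.5, 26.6 and 27.7 CPM in MIZ libraries. MIZ replicate 1 was the highest of its group, yet the groups did not overlap. The log2 fold change between MIZ and vehicle was -2.21 (edgeR, SE 0.168, adjusted p = 3.50e-06), which left 21.6% of the vehicle level. Against undifferentiated cells the log2 fold changes were 5.58 (SE 0.209) with vehicle and 3.36 (SE 0.204) with MIZ. Apela, the gene of the other ligand of the apelin receptor, had too few counts to be tested.

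Rarres2 (ENSMUSG00000009281, chr6:48569696-48572789, minus strand) encodes chemerin, which attracts immune cells and is needed for adipocyte differentiation in culture. It had the smallest fall with MIZ of the 9 genes tested. The libraries stood at 8.16, 7.06 and 7.05 CPM in undifferentiated, 113, 148 and 123 CPM in vehicle and 90.9, 87.0 and 72.7 CPM in MIZ cells. The MIZ libraries were closer to the vehicle libraries than to the undifferentiated ones without overlapping either. The mean was 128 ± 17.99 CPM with vehicle and 83.6 ± 9.59 CPM with MIZ (SD, n = 3 each), a log2 fold change of -0.61 (edgeR, SE 0.111, adjusted p = 0.000726). Against undifferentiated cells the log2 fold changes were 4.11 (SE 0.132) with vehicle and 3.50 (SE 0.130) with MIZ. The size of the fall depends on how libraries are scaled: on the TPM scale, which has no TMM factor, the ranges overlapped, at 128.8 to 171.8 TPM with vehicle and 104.7 to 131.4 TPM with MIZ. Rarres2 shares 892 exon bases with Lrrc61 on the opposite strand, which had 5014 counts in all libraries together, and without a stated strand setting their reads cannot be told apart there.

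Nrg4 (ENSMUSG00000032311, chr9:55220222-55326844, minus strand) encodes neuregulin 4, an EGF-like ligand of ERBB receptors that is enriched in brown fat. It fell by most. The vehicle libraries stood at 17.5, 16.5 and 15.8 CPM, the undifferentiated at 0.364, 0.180 and 0.393 CPM and the MIZ libraries at 0.068, 0.326 and 0.355 CPM. All vehicle libraries were far above the other 6, which overlapped each other. The log2 fold change between MIZ and vehicle was -6.11 (edgeR, SE 0.281, adjusted p = 3.82e-09), which left 1.503% of the vehicle level, and that between vehicle and undifferentiated cells was 5.69 (edgeR, SE 0.257, adjusted p = 2.26e-09). MIZ and undifferentiated cells, with 27 and 47 Nrg4 counts, differed by a log2 fold change of -0.42 (edgeR, SE 0.461, adjusted p = 0.433), which did not pass the test. Without MIZ replicate 1, which held 3 of the 27 counts, this value turned to 0.0962. Nrg4 shares 368 exon bases with Fbxo22 on the opposite strand, which had 12589 counts, and reads of the shared part cannot be told apart.

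Itih5 (ENSMUSG00000025780, chr2:10153571-10256529, plus strand) encodes a member of the inter-alpha-trypsin inhibitor heavy chains, matrix proteins that bind hyaluronan. It stood at 2.41, 2.697 and 2.13 CPM in undifferentiated, 237, 307 and 325 CPM in vehicle and 4.24, 5.40 and 7.42 CPM in MIZ libraries. The MIZ libraries were just above the undifferentiated ones and far below the vehicle ones. The log2 fold change between MIZ and vehicle was -5.69 (edgeR, SE 0.210, adjusted p = 3.03e-08), which left 1.96% of the vehicle level. Against undifferentiated cells, MIZ was higher by 1.23 (edgeR, SE 0.248, adjusted p = 0.00231) and vehicle by 6.92 (SE 0.227) on the log2 scale.

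Nampt (ENSMUSG00000020572, chr12:32819545-32853349, plus strand) encodes the rate-limiting enzyme that makes NAD from nicotinamide and is also called visfatin when found outside cells. It was the most abundant of the 10 genes in undifferentiated cells per length, at 42.6 ± 2.75 TPM (SD, n = 3). In CPM its libraries stood at 49.5, 55.6 and 53.0 in undifferentiated, 294, 349 and 352 in vehicle and 73.2, 66.9 and 60.2 in MIZ cells. The MIZ libraries were slightly above the undifferentiated ones. The log2 fold change was -2.31 between MIZ and vehicle (edgeR, SE 0.0888, adjusted p = 1.46e-09), 2.65 between vehicle and undifferentiated cells (SE 0.0899) and 0.34 between MIZ and undifferentiated cells (edgeR, SE 0.0867, adjusted p = 0.00496).

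Lgals12 (ENSMUSG00000024972, chr19:7596660-7607193, minus strand), the gene of galectin-12, had 0 counts in all undifferentiated libraries. The vehicle libraries stood at 93.2, 91.6 and 85.4 CPM and the MIZ libraries at 6.501, 8.82 and 11.4 CPM. No libraries of these groups came near each other. The log2 fold change was -3.35 (edgeR, SE 0.186, adjusted p = 4.31e-06), which left 9.91% of the vehicle level, close to the share left of Adipoq. Against undifferentiated cells, the lower 95% counting limit of the ratio was 3572 for vehicle and 346.3 for MIZ.

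**Figure D2:**
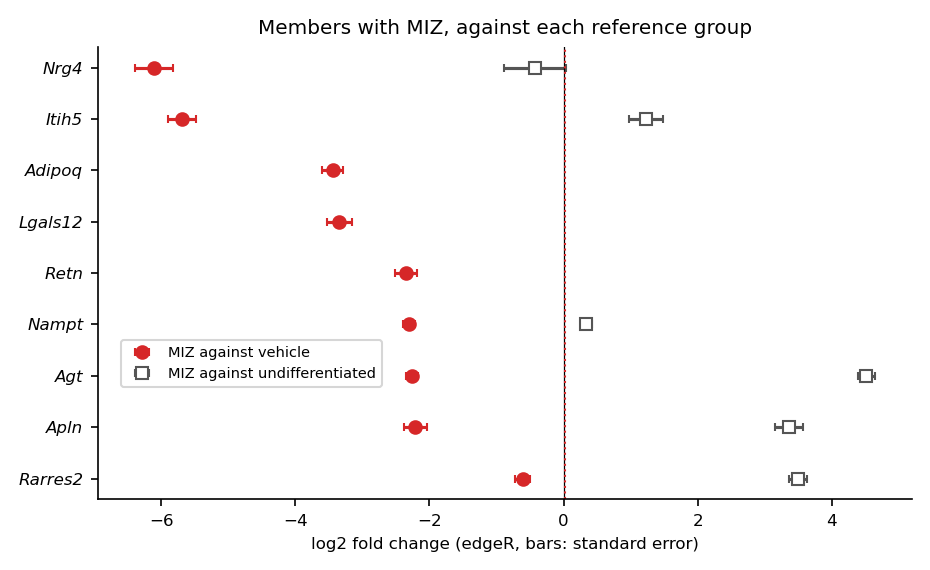
Log2 fold changes (edgeR, bars: standard error) of the 9 genes tested, for MIZ against vehicle (filled red) and MIZ against undifferentiated cells (open squares), with the dotted line at the median of all genes tested. Adipoq, Retn and Lgals12 have no square because undifferentiated cells held 0 to 2 counts, and the red points run from -6.11 (Nrg4) to -0.61 (Rarres2).

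Setting the 3 groups side by side gives the share of each gene's rise with differentiation that was found with MIZ, the difference between MIZ and undifferentiated means over that between vehicle and undifferentiated means in CPM. It was 63.3% for Rarres2, 20.1% for Agt, 19.9% for Apln and 19.7% for Retn. It was 9.91% for Lgals12 and 9.20% for Adipoq. It was 5.04% for Nampt, 1.14% for Itih5 and -0.383% for Nrg4, whose mean with MIZ was below the undifferentiated mean. The sign for Nrg4 rests on MIZ replicate 1, without which the log2 fold change of MIZ against undifferentiated cells was 0.0962. The fall of Nampt from the vehicle level was thus like that of Agt, Apln and Retn as a fold, while nearly all of its rise was missing, since it started from a high level in undifferentiated cells.

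Per transcript length, the order of the 10 genes in vehicle libraries was Adipoq (1453 ± 32.7 TPM), Retn (669 ± 72.9), Agt (244 ± 12.5), Nampt (202 ± 22.6), Rarres2 (148 ± 21.8), Apln (142 ± 22.2), Itih5 (113 ± 19.7), Lgals12 (100.1 ± 3.37), Nrg4 (8.42 ± 0.313) and Lep (0.0474), in mean TPM ± SD (n = 3). The neighbours Rarres2 and Apln, Apln and Itih5, and Itih5 and Lgals12 overlapped between libraries, and the other neighbours did not. Adipoq was above 99.8% of all genes and Retn above 99.5%. With MIZ the order began with Adipoq (168 ± 39.6 TPM) and Retn (165 ± 36.7 TPM), which overlapped, and then Rarres2 (122 ± 14.8 TPM), which overlapped Adipoq. Agt (63.8 ± 7.36 TPM), Nampt (51.1 ± 5.12 TPM) and Apln (38.3 ± 8.49 TPM) followed, each overlapping the next, before Lgals12 (12.4 ± 3.39 TPM), Itih5 (2.78 ± 0.770 TPM) and Nrg4 (0.159 ± 0.101 TPM), which did not. In undifferentiated cells the order was Nampt, Rarres2 (11.4 TPM), Apln (3.95 TPM), Agt (2.90 TPM), Itih5 (1.25 TPM) and Nrg4 (0.210 TPM), with no overlap between neighbours.

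**Figure D3:**
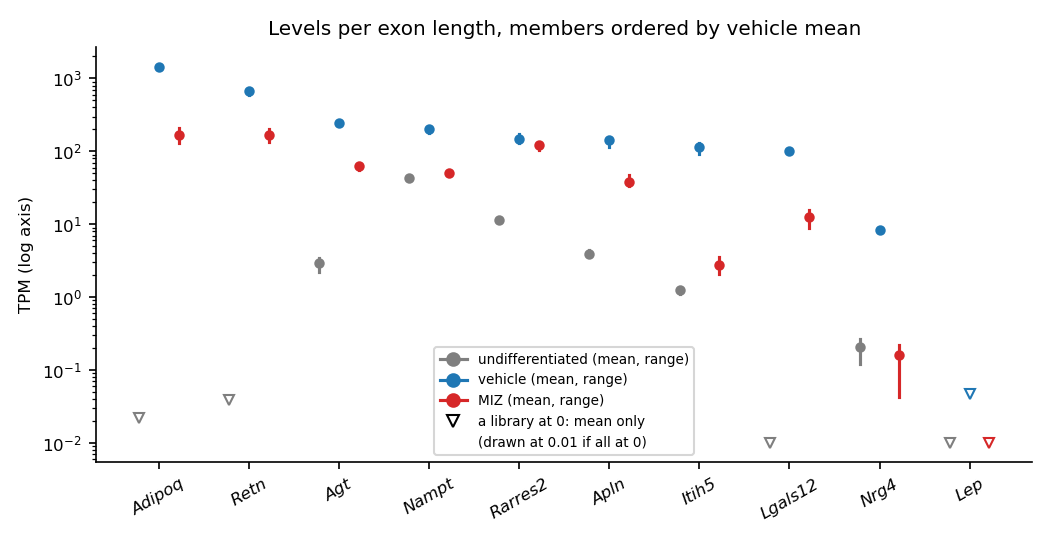
Mean TPM (points) and the range over 3 libraries (bars) on a log axis, with genes ordered by the vehicle mean and open triangles for groups with a library at 0 (drawn at 0.01 where all 3 were). Adipoq and Retn lead with vehicle at 1453 and 669 TPM and stand level at 168 and 165 TPM with MIZ, where Rarres2 comes close to them at 122 TPM.

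The 10 genes together made up 3081 ± 121.2 TPM with vehicle, 623 ± 47.9 TPM with MIZ and 62.3 ± 1.83 TPM in undifferentiated cells (SD, n = 3 each). Adipoq alone was 47.2% ± 2.78 of that sum with vehicle and 26.7% ± 4.31 with MIZ (SD, n = 3 each). The order in vehicle libraries stayed the same for all 45 pairs of genes when the longest transcript was taken in place of all exons, and with MIZ Retn then came before Adipoq. For Nrg4, whose annotated exons are spread over many transcripts, the vehicle mean was then 19.5 TPM.

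Among the 3 MIZ libraries the genes fell into different orders. Adipoq, Retn, Itih5, Lgals12 and Nrg4 were highest in MIZ replicate 3 and lowest in MIZ replicate 1, with ratios of highest to lowest of 1.62, 1.55, 1.75, 1.76 and 5.22. Nampt, Rarres2 and Agt were highest in replicate 1 and lowest in replicate 3, with ratios of 1.22, 1.25 and 1.23, and Apln was highest in replicate 1 (ratio 1.49). The adipocyte marker sum was 888, 991 and 1105 CPM in MIZ replicates 1, 2 and 3, the preadipocyte sum 1162, 1030 and 992 CPM and the macrophage sum 625, 554 and 452 CPM. Most of the macrophage sum was Adgre1 (470, 409 and 318 CPM). Csf1r and Cd68 fell in the same order, while Ptprc was nearly flat (26.5, 26.5 and 25.7 CPM) and Mrc1 was highest in replicate 2. The smooth muscle sum was 6823, 6521 and 8574 CPM. The first 5 genes thus stood in the order of the adipocyte marker sum and Nampt, Rarres2 and Agt in that of the preadipocyte and macrophage sums. With 3 libraries this is a description, and the part of the mix of cells in it was not tested. In the vehicle group, replicate 1 was the lowest for Retn, Nampt, Apln, Rarres2 and Itih5 and the highest for Adipoq, Nrg4 and Lgals12, and all 9 genes stayed lower with MIZ when it was left out.

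**Figure D4:**
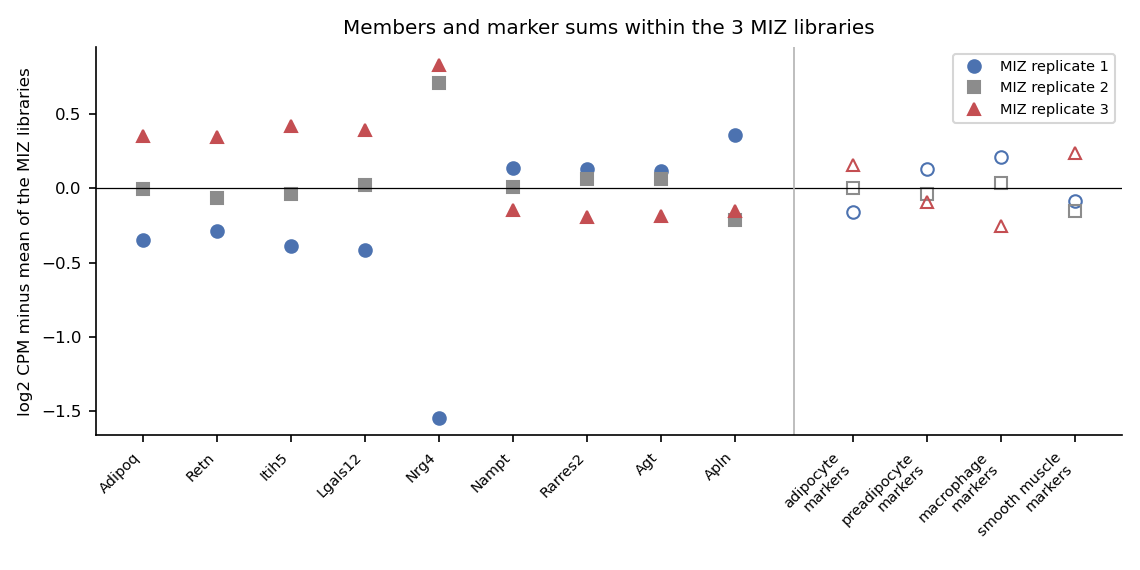
Log2 CPM of 9 genes (filled) and of 4 marker sums (open) in each MIZ library, as the difference from the mean log2 CPM of the 3 MIZ libraries. Replicate 3 (triangles) is above and replicate 1 (circles) below the mean for the 5 genes on the left and for the adipocyte markers, and the reverse holds for Nampt, Rarres2, Agt and the preadipocyte and macrophage markers.

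The receptors and binding proteins of these factors were read from a list. Of 20 listed genes 17 were tested, and 8 were higher and 5 lower in MIZ-treated than in vehicle-treated cells (their median was 0.04 on the log2 scale, against 0.02 for all genes), where 35.8% of all genes tested were higher and 35.0% lower. With scaling by total counts, 3 of them were lower. The adiponectin receptor gene Adipor2 was at 69.6 CPM in undifferentiated, 792 CPM in vehicle and 119 CPM in MIZ cells (means, n = 3), a log2 fold change of -2.73 between MIZ and vehicle (SE 0.0631), while Adipor1 was at 147, 125 and 146 CPM (0.22, SE 0.0449). Cdh13, which encodes the cadherin that holds adiponectin on cell surfaces, was at 1.53, 0.791 and 2.25 CPM (1.47). The chemerin receptor gene Cmklr1, at 4.64, 13.6 and 3.20 CPM, fell by 2.09 on the log2 scale (SE 0.136), and Ccrl2, whose product binds chemerin without signalling, fell by 3.01 (SE 0.285) from 3.97 to 0.474 CPM. Gpr1, another chemerin receptor gene, was at or near 0 except with MIZ (0.242 CPM). So with MIZ the chemerin gene kept most of its level while Cmklr1 and Ccrl2 stood below undifferentiated cells (1.16 CPM for Ccrl2). Gpr1 stood above them, at a very low level.

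Of the ERBB receptor genes, Erbb2 and Erbb3 were higher with MIZ. Erbb2, which encodes the co-receptor that other ERBB receptors pair with, stood at 28.1, 7.91 and 27.6 CPM in undifferentiated, vehicle and MIZ cells (log2 fold change of MIZ against vehicle 1.79, SE 0.0880), and Erbb3, a neuregulin receptor gene, at 9.55, 8.48 and 23.0 CPM (1.44, SE 0.182). Erbb4, the gene of the main neuregulin 4 receptor, had too few counts to be tested. Of the angiotensin receptors, Agtr1a was higher with MIZ than with vehicle, at 9.78 against 4.91 CPM (0.98, SE 0.147). It stood at 11.1 CPM in undifferentiated cells, and MIZ against these did not pass the test (-0.18, SE 0.138). Agtr2 was at 70.1 CPM in undifferentiated, 8.26 in vehicle and 4.33 CPM in MIZ cells (-0.95 between MIZ and vehicle, SE 0.340). That call did not hold without vehicle replicate 3 (-0.59, adjusted p = 0.0821, edgeR), nor without MIZ replicate 2 or 3 or with scaling by total counts. Mas1 had 0 counts. Lnpep and Atp6ap2, which encode the angiotensin IV and prorenin receptors, and Agtrap, whose product binds the angiotensin receptor, did not pass the test, with log2 fold changes of -0.09, -0.01 and -0.05. The apelin receptor gene Aplnr was low throughout, at 0.206, 0.181 and 0.585 CPM (1.55, SE 0.437, and 2.24 without vehicle replicate 3), and the leptin receptor gene Lepr lower still, at 0.132, 0.0610 and 0.0644 CPM (0.04, did not pass). Cap1 and Tlr4, which encode proposed receptors of resistin, were at 187 and 36.5 CPM with vehicle and 443 and 29.1 CPM with MIZ (1.25 and -0.32). In undifferentiated cells they stood at 416 and 53.5 CPM, and for Cap1 MIZ against these cells did not pass the test (0.09, SE 0.0613). The call of Tlr4 was lost when any 1 of 7 of the 9 libraries was left out and with scaling by total counts (-0.18, adjusted p = 0.226, edgeR). Cap1 overlaps Ppt1 and Erbb2 overlaps Mien1 on the opposite strand.

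**Figure D5:**
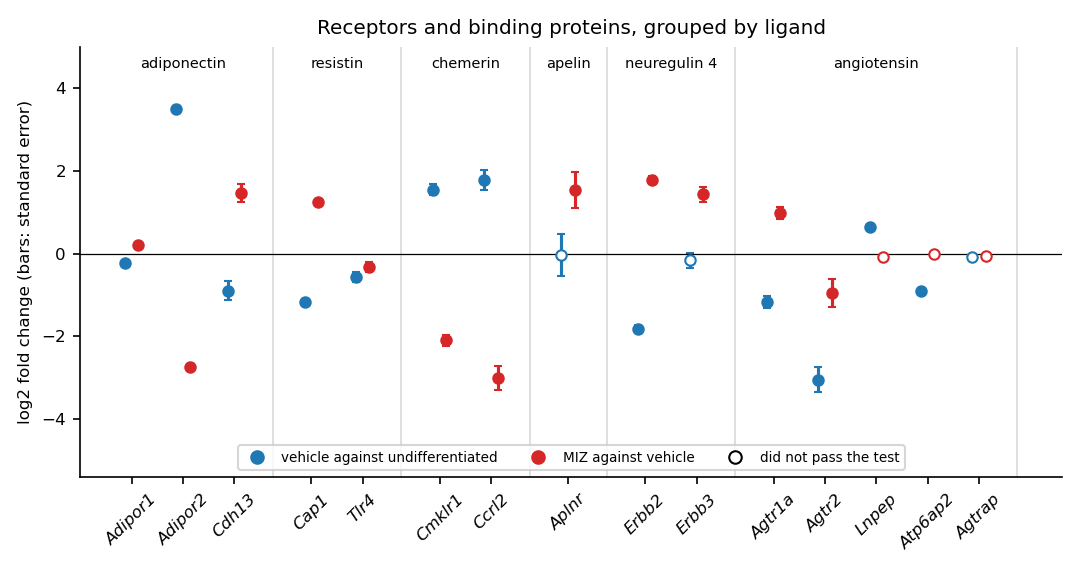
Log2 fold changes (edgeR, bars: standard error) of receptor and binding protein genes, grouped by ligand, for vehicle against undifferentiated cells (blue) and MIZ against vehicle (red), with open points for values that did not pass the test. Adipor2, Cmklr1 and Ccrl2 rose with differentiation and fell with MIZ, and Lepr and Gpr1 are left out because their levels were under 0.3 CPM.

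The enzymes that make or cut these factors were also read from listed genes. Of 15 genes for the folding and assembly of adiponectin, 8 were lower and 5 higher with MIZ (median -0.93). Over all genes tested, 35.0% were lower and 35.8% higher, which is also the background of the angiotensin, NAD, hyaluronan, galectin and EGF-type lists. Ero1l, which encodes the oxidase that drives disulfide bonding and adiponectin release, was at 45.3, 2202 and 269 CPM in undifferentiated, vehicle and MIZ cells (log2 fold change of MIZ against vehicle -3.03, SE 0.108). Hspa5, the gene of the main chaperone of the endoplasmic reticulum, was at 649, 2393 and 553 CPM (-2.11, SE 0.122), and Plod1, which encodes a lysyl hydroxylase for collagen-like chains, at 148, 329 and 108 CPM (-1.61, SE 0.132). Hspa5 and Plod1 with MIZ were thus near or below their undifferentiated levels, while Adipoq and Ero1l stayed above them.

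Of 11 tested genes whose products process angiotensins, 6 were lower and 2 higher with MIZ (median -0.60). The largest falls were in genes of peptidases that break angiotensins down: Mme (neprilysin) went from 63.9 to 3.78 CPM (-4.08, SE 0.0972), Enpep (aminopeptidase A) from 10.01 to 2.21 CPM (-2.19, SE 0.164) and Anpep (aminopeptidase N) from 41.1 to 10.5 CPM (-1.98, SE 0.0973). Mme and Enpep had risen with differentiation from 1.4998 and 0.903 CPM, whereas Anpep had fallen from 307 CPM. Ace, which encodes the enzyme that makes angiotensin II, was at 12.5, 33.1 and 21.9 CPM (-0.60, SE 0.157), and Ren1, the renin gene, stayed at or under 0.343 CPM in group means. The 2 higher genes were Ren1 and Prcp. The call of Ren1 (1.64) was lost without vehicle replicate 3 (1.20, adjusted p = 0.0646, edgeR). Prcp was at 37.1, 6.98 and 24.8 CPM in undifferentiated, vehicle and MIZ cells (1.82, SE 0.0549), a rise near the size of the fall of Anpep. Ace and Ren1 were named for their roles and Prcp for its direction, all after their values were seen.

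Around Nampt, 17 of 18 listed genes of NAD synthesis and use were tested, of which 12 were lower and 2 higher with MIZ (median -0.60). Among the higher genes, the call of Nadk (0.17) was lost without vehicle replicate 2 or 3 or MIZ replicate 1 or 2. Among the lower genes, the call of Cd38 (-0.76) was lost without MIZ replicate 1, 2 or 3. Sirt3, which encodes the NAD-dependent deacetylase of mitochondria, went from 31.99 to 5.75 CPM (-2.48, SE 0.0825), though it shares exons with Ric8a and Psmd13 on the opposite strand. Nmnat1, which encodes the nuclear enzyme of the step after NAMPT, went from 16.3 to 4.90 CPM (-1.74, SE 0.0893), and Nmnat2, its Golgi counterpart, rose from 1.68 to 4.28 CPM (1.36, SE 0.163). Nmnat1 stood at 4.83 CPM in undifferentiated cells, close to its level with MIZ (log2 fold change 0.02, SE 0.0931). Nmnat2 stood at 9.54 CPM there, above its level with MIZ (log2 fold change of MIZ against undifferentiated cells -1.15, SE 0.138).

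The relatives of Itih5, Lgals12 and Nrg4 did not share 1 direction. Of 10 tested genes of inter-alpha-trypsin inhibitors and hyaluronan, 3 were higher and 3 lower with MIZ: Itih4 went from 53.2 to 3.27 CPM (-4.02, SE 0.560, and -3.32 without vehicle replicate 1, which stood at 95.1 CPM where the others stood at 42.7 and 21.9 CPM) and Tnfaip6, whose product transfers these heavy chains to hyaluronan, from 19.1 to 3.04 CPM (-2.64, SE 0.157), while Cd44, the hyaluronan receptor gene, rose from 151 to 714 CPM (2.25, SE 0.220). Of 6 galectin genes tested, 4 were lower and 1 higher: Lgals4 went from 9.36 to 1.24 CPM (-2.93, SE 0.193) and Lgals3 from 450 to 92.2 CPM (-2.29, SE 0.0977), and Lgals1 rose from 466 to 1463 CPM (1.65, SE 0.0499). Of 7 neuregulin and EGF-type ligand genes tested, 4 were higher and 2 lower, with Hbegf rising from 1.83 to 12.6 CPM (2.81, SE 0.171) and Nrg1 from 4.07 to 10.3 CPM (1.37, SE 0.113). In undifferentiated cells Hbegf stood at 4.20 CPM and Nrg1 at 70.2 CPM. Nrg1 with MIZ was thus far below its undifferentiated level (log2 fold change -2.76, SE 0.0977).

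Of 34 tested genes of other secreted factors of fat tissue, 14 were higher and 14 lower with MIZ (median 0.13), where 35.8% of all genes tested were higher and 35.0% lower. Rbp4, which encodes the retinol carrier, was at 0.0547, 258 and 2.98 CPM in undifferentiated, vehicle and MIZ cells (log2 fold change of MIZ against vehicle -6.45, SE 0.332). Its fall was of the size of those of Nrg4 and Itih5. Ccn5, which encodes a matrix protein of the CCN family, was at 87.4, 2.76 and 158 CPM (5.74, SE 0.311), and Cxcl14, a chemokine gene, at 11.3, 0.946 and 9.32 CPM (3.32, SE 0.171). These genes were lowest with vehicle, the reverse of the 9 adipokine genes. Of 3 tested genes whose enzymes can cut chemerin, Ctsk was higher (0.50) and Ctsl (-0.38) and Ctss (-0.52) were lower with MIZ.

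For each of the 9 genes, the genes closest in pattern were found as those with the smallest root mean square difference of mean-centred log2 CPM over the 9 libraries, among 4529 genes whose mean reached 10 CPM in a group and that differed over 2-fold between group means. All 9 libraries and their 3 groups enter each of these values, so they describe likeness between these groups and have no test. Plin1, which encodes the lipid droplet coat perilipin, was closest to both Adipoq (difference 0.46) and Retn (0.24). Nampt was closest to Letm1 (0.12) and Slc25a42 (0.13), both genes of inner mitochondrial membrane proteins. Apln was closest to Bnip3 (0.27) and Car5b (0.27), and Agt to Gpat3 (0.26), which encodes an enzyme of triglyceride synthesis, and Zbtb16 (0.31), a transcription factor gene. Itih5 was closest to Acacb (0.28), the gene of the mitochondrial acetyl-CoA carboxylase, and Ppara (0.34), which encodes the nuclear receptor PPARα, and Nrg4 to Coq8a (0.68) and Acacb (0.71). Bnip3, Coq8a and Gpat3 share exon bases with other genes on the opposite strand. Lgals12 was closest to Paqr9 (0.27) and Aldh3b2 (0.33), and Rarres2 to Sbsn (0.26) and Gpr35 (0.28), which stood at 49.7 and 11.2 CPM with vehicle and 45.6 and 10.5 CPM with MIZ. That these genes kept most of their vehicle level with MIZ follows from how they were picked, since MIZ and vehicle libraries entered the choice.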

How the data were processed

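Total RNA of 9 cultures of SVF cells was sequenced as paired reads after depletion of ribosomal RNA and, per the methods, poly-A selection. The authors trimmed reads with Trim Galore 0.6.7, aligned them with STAR to GRCm38 (mm10) and deposited raw, unnormalized counts for each gene, with a table per library. For the counting, the labels list HTSeq whereas the methods describe STAR's built-in option. The annotation release and the strand setting are not given in the sources used here.

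Symbols were matched by Ensembl identifier to GENCODE M21 (GRCm38) for 32158 of 32285 identifiers. The filter asked for 5 counts in 3 or more libraries (17173 genes passed, holding 99.9866% of counts, and 15112 did not). The deposited counts of all 9 libraries were fitted in one model with edgeR 4.0.16 in R 4.3.3 (TMM, robust quasi-likelihood F-test, group as the only term, biological coefficient of variation 0.0806), and p-values were adjusted over all genes by the Benjamini-Hochberg method. TPM used the union of exons. Means are of TMM-normalized CPM. The 95% intervals and the floor of 3 counts cover counting error only. In simulated data for MIZ against vehicle (16925 genes tested), 67, 67 and 66 genes were changed by log2 fold changes of 0.5, 1 and 2. There edgeR recovered 68.7%, 94% and 98.5% of them, with 15 false calls. In the deposited data 35.8% of genes tested were called higher and 35.0% lower. The recovery and false calls were not measured with so many genes changed. An exact permutation test of 3 against 3 libraries cannot go below 0.1, so single values were not tested on their own. The members, the related gene lists, the markers and the naming rule (all 10 genes, receptors, up to 3 genes with the largest change per list with at least 5 CPM in a group, and the 2 closest genes in pattern) were chosen with earlier results of these data known. DESeq2 1.42.0, limma 3.58.1, other normalizations and filters, a replicate block and fits without each library were tried. Total-count scaling of the related lists and fits without each library for their named genes were chosen after seeing the data. Promoter sequences are RefSeq's for GRCm38.p6. Plots were made in Python 3.11.15 with matplotlib 3.10.9.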

Additional observations from a re-analysis of the deposited data

How the results depend on the processing

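Each of the 9 genes kept its direction and its side of the threshold in MIZ against vehicle and in vehicle against undifferentiated cells under all 17 alternatives. The value nearest to 0 was Rarres2 between MIZ and vehicle, with log2 fold changes from -0.70 to -0.47 and adjusted p-values up to 0.00375 over the tools run. In MIZ against undifferentiated cells, Nampt ranged from 0.27 to 0.41 and Itih5 from 1.00 to 1.42, both past the threshold throughout, and Nrg4, which did not pass, ranged from -0.77 to 0.0962 when single libraries were left out, the highest without MIZ replicate 1. The fitted log2 fold changes of Adipoq and Retn against undifferentiated cells rest on 1 and 2 counts: without undifferentiated replicate 2, which holds the Adipoq count, that of vehicle went from 16.03 to 17.74 for Adipoq, and without undifferentiated replicate 1 that of Retn went from 14.34 to 16.81. Of the NAD genes, 2 were higher with MIZ in edgeR with TMM, 1 with RLE size factors and 1 with DESeq2, and of the galectins 1 was higher in edgeR with TMM and 2 with DESeq2. Scaling by total counts alone moved the median log2 fold change of all genes by 0.14 (MIZ against vehicle), -0.18 (vehicle against undifferentiated) and -0.04 (MIZ against undifferentiated), and the calls of the 9 genes did not change. Over all genes it gave 7266 higher and 5097 lower in MIZ against vehicle (6150 and 6008 with TMM) and 5147 higher and 8279 lower in vehicle against undifferentiated cells (6208 and 7119 with TMM). Chosen after seeing the data, the same scaling gave, for MIZ against vehicle, 3 receptor genes lower in place of 5 and 2 galectins higher in place of 1. In vehicle against undifferentiated cells it gave 2 galectins higher in place of 4 and 0 chemerin-processing genes in place of 1, and in MIZ against undifferentiated cells 1 galectin in place of 2. Correlations of the deviations of same-numbered libraries were -0.0447 to 0.0630, so the values reported use no block, and whether a number marks the same animal is not given in the sources used here. With a replicate block, 9 of the 9 genes were lower with MIZ than with vehicle, with log2 fold changes of -3.47 for Adipoq and -6.11 for Nrg4, and 6074 genes were higher and 5922 lower over all genes. Depth limits Lep in every group and Adipoq, Retn, Lgals12 and Nrg4 in undifferentiated cells.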

Other observations

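A pair of other secreted factors stood above both other groups with MIZ, and these were picked after their values were seen. Il6, the gene of interleukin 6, was at 1.48 CPM in undifferentiated, 14.0 CPM in vehicle and 28.3 CPM in MIZ cells (log2 fold change of MIZ against vehicle 1.02, standard error or SE 0.102, edgeR), and Ccl2, which encodes a chemokine for monocytes, at 39.0, 165 and 375 CPM (1.19, SE 0.223). Both genes rose with differentiation as the adipokines did, and were higher again with MIZ, where the adipokines were lower.

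A few factors of fat cells resembled Rarres2 in keeping much of their vehicle level, and they too were picked after their values were seen. Cfd, which encodes the complement factor adipsin, was at 0.0282, 41.6 and 26.4 CPM in undifferentiated, vehicle and MIZ cells (-0.65, SE 0.119), and Angptl4, which encodes an inhibitor of lipoprotein lipase, at 17.0, 659 and 348 CPM (-0.92, SE 0.107). Lcn2, the lipocalin 2 gene, was at 0.374, 244 and 146 CPM, a difference between MIZ and vehicle that did not pass the test (-0.74, SE 0.350, adjusted p = 0.0931 from edgeR). By contrast, Fgf21, a hormone gene, was at 0.917, 15.5 and 2.39 CPM (-2.70, SE 0.133), nearer to the share left of Retn and Agt.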
